A study of Mus musculus with 6 samples.

Results

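The 34 genes described here are expressed as cells pass from G2 into mitosis and divide: mitotic cyclins and CDK1, the transcription factor FOXM1, mitotic kinases, the chromosomal passenger complex, the spindle checkpoint, centromere proteins, condensin and other chromosome proteins, spindle motors and the proteins of cytokinesis. They are a list of gene names whose rule uses no threshold on their values, though it was drawn up with earlier results of these data known, and each matched 1 Ensembl identifier among the 56941 genes of the count table. All 34 also had enough counts to be tested, among 18562 genes. The study sequenced polyA RNA of primary endothelial cells isolated from mouse lungs with magnetic beads. Group EC-KO (3 libraries) carried the genotype FUNDC1-KO, and group FL (3 libraries) carried FUNDC1-FLOX, the floxed gene. FUNDC1 is a mitophagy receptor of the outer mitochondrial membrane. Dead cells were removed from both groups, and both were kept in endothelial medium with serum. Sample titles call the cells PAECs. The labels give no Cre driver, antibody, age or sex, and no label says that replicates are separate animals. The p-values reflect no more than the spread among these libraries, which may be technical.

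Entry into mitosis is driven by CDK1 bound to cyclin A or cyclin B. Most of the genes that carry mitosis out are transcribed in late S phase and G2 and are held silent in resting cells by a repressor complex (DREAM) of the MuvB core with RB-like proteins. Later in the cycle the MuvB core works with B-MYB and FOXM1 on the same promoters. Endothelial cells of the adult lung are mostly quiescent, and they divide during repair and in culture.

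Fundc1, the targeted gene, had 14.1, 18.2 and 12.8 counts-per-million units (CPM) in EC-KO libraries, against 25.1, 32.0 and 30.7 CPM in FL libraries, a log2 fold change of -0.96 ± 0.19 (standard error; adjusted p = 0.00796, edgeR's quasi-likelihood test with Benjamini-Hochberg adjustment, as for every adjusted p given here). Every EC-KO library was therefore lower than every FL library, with transcript remaining. Depth was 29723104 to 33474398 counts in EC-KO libraries and 26658998 to 34306962 counts in FL libraries. Markers of several cell types differed between the groups, while of all genes tested 13.5% were lower in EC-KO and 13.5% higher. Among 18 pan-endothelial markers 11 were lower in EC-KO and 0 higher, with a summed level of 3902 to 7759 CPM in EC-KO and 10267 to 14337 CPM in FL. Among 15 epithelial markers 14 were higher (11647 to 17203 CPM in EC-KO, 1952 to 4511 CPM in FL), and 7 of 12 fibroblast markers were higher (1198 to 2466 CPM in EC-KO, 940 to 1191 CPM in FL). Of the immune lists, 13 of 14 macrophage markers were lower (2112 to 2865 CPM in EC-KO, 3633 to 5577 CPM in FL), as were 4 of 5 neutrophil markers (338 to 403 CPM in EC-KO, 914 to 2286 CPM in FL). Lower too were 8 of 10 smooth muscle and pericyte markers and 4 of 6 lymphatic endothelial markers, and 4 of 7 erythroid and platelet markers were higher. Lymphocyte markers had 2 higher and 2 lower of 8, and mesothelial markers 1 higher of 4 tested, with Uroc1 at 0 in all 6 libraries. The part of these cell type markers in the mitosis results was not tested.

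The mitosis genes were lower in EC-KO cells where they differed. A total of 10 of 34 (29.4%) fell and 0 rose, while over all 18562 genes tested 13.5% were lower in EC-KO and 13.5% higher, 27.1% in all. The 10 were Cenpf, Anln, Kif23, Ccna2, Nusap1, Cdk1, Ncaph, Tpx2, Mki67 and Kif4, with log2 fold changes between -1.74 and -0.71. Of all 34, 28 had a fold change under 0 and 6 above it, with a median of -0.51 beside 0.03 for all genes tested. In 14 of the 34 every EC-KO library was below every FL library, and in 0 every EC-KO library was above. That order was seen in 22.8% of all genes tested, and the opposite one in 22.6%. In RNA from a mixed population, fewer dividing cells, another mix of cell types and less of these transcripts per cell cannot be told apart. The count of 10 rested on single libraries: it was 4 without EC-KO 1, 5 without EC-KO 3, FL 2 or FL 3, 11 without EC-KO 2 and 12 without FL 1. The count of 0 that rose also depended on EC-KO 2: without it 3 were called higher (Foxm1, Incenp and Cenpa). The count of all genes called also moved widely when libraries were left out, over a range given in the closing section on processing. These changes are therefore not particular to the mitosis genes. Cenpf (ENSMUSG00000026605), Anln (ENSMUSG00000036777), Kif23 (ENSMUSG00000032254) and Ccna2 (ENSMUSG00000027715) were called lower under each of the 15 alternative settings and omissions.

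**Figure D1:**
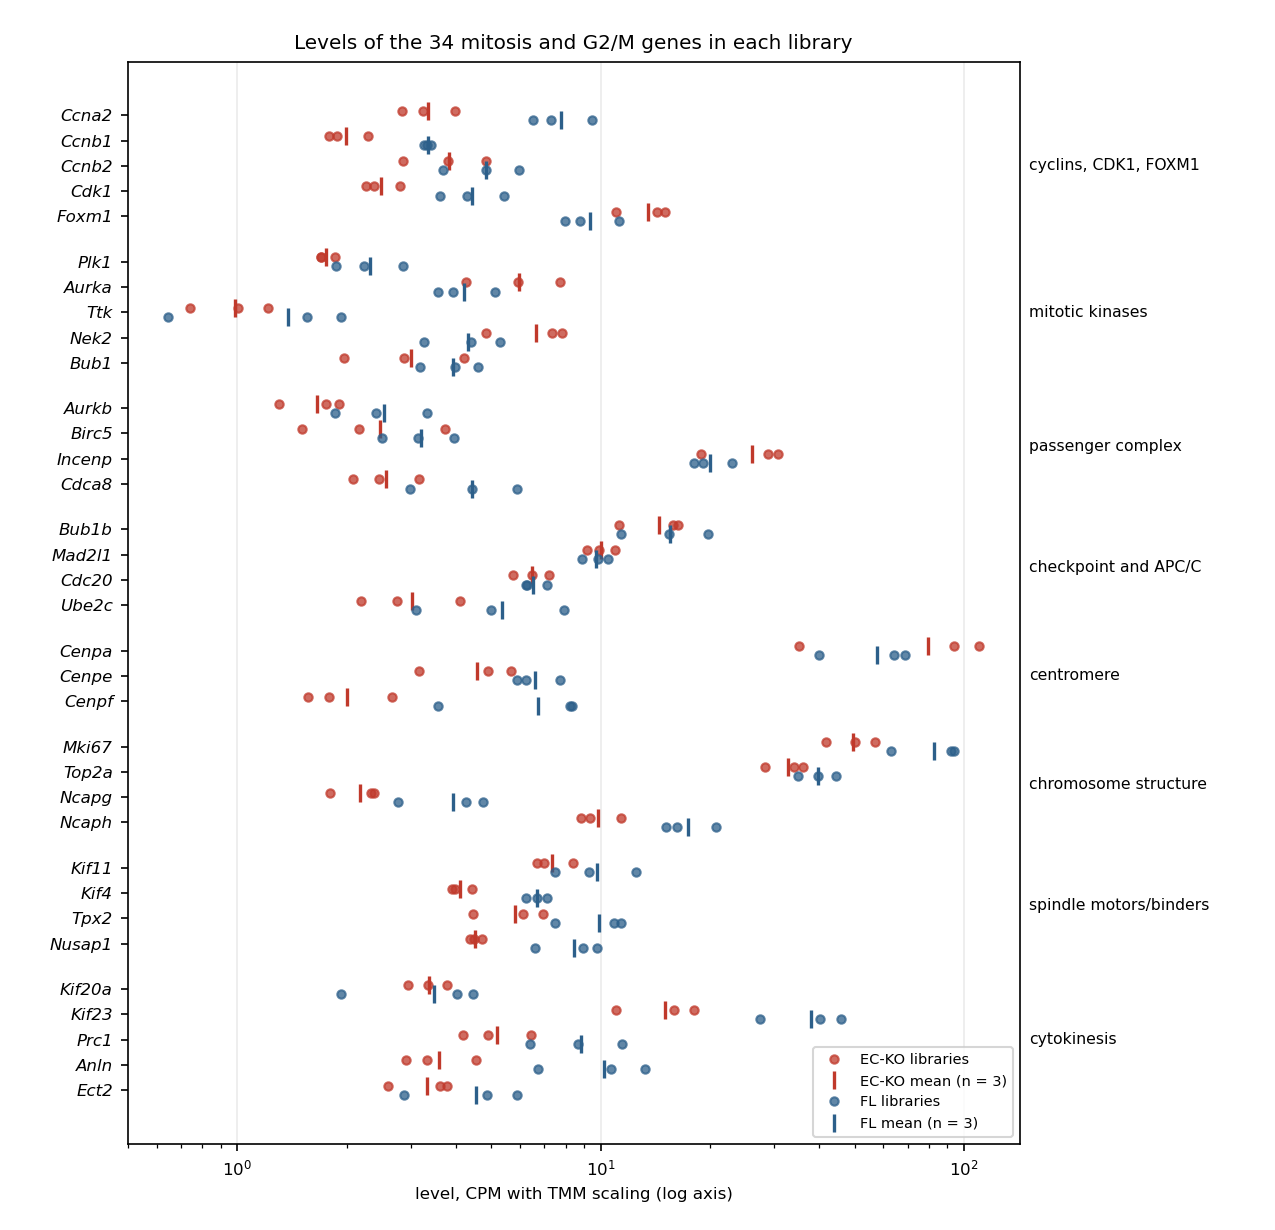
Level of each of the 34 genes in each library, in CPM on a log axis, with 1 point per library, EC-KO above FL, vertical marks at the group means (n = 3 each) and genes grouped by role. Cenpa and Mki67 lie highest, most genes lie under 10 CPM, and for the 10 genes that fell every EC-KO point lies below every FL point.

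**Figure D2:**
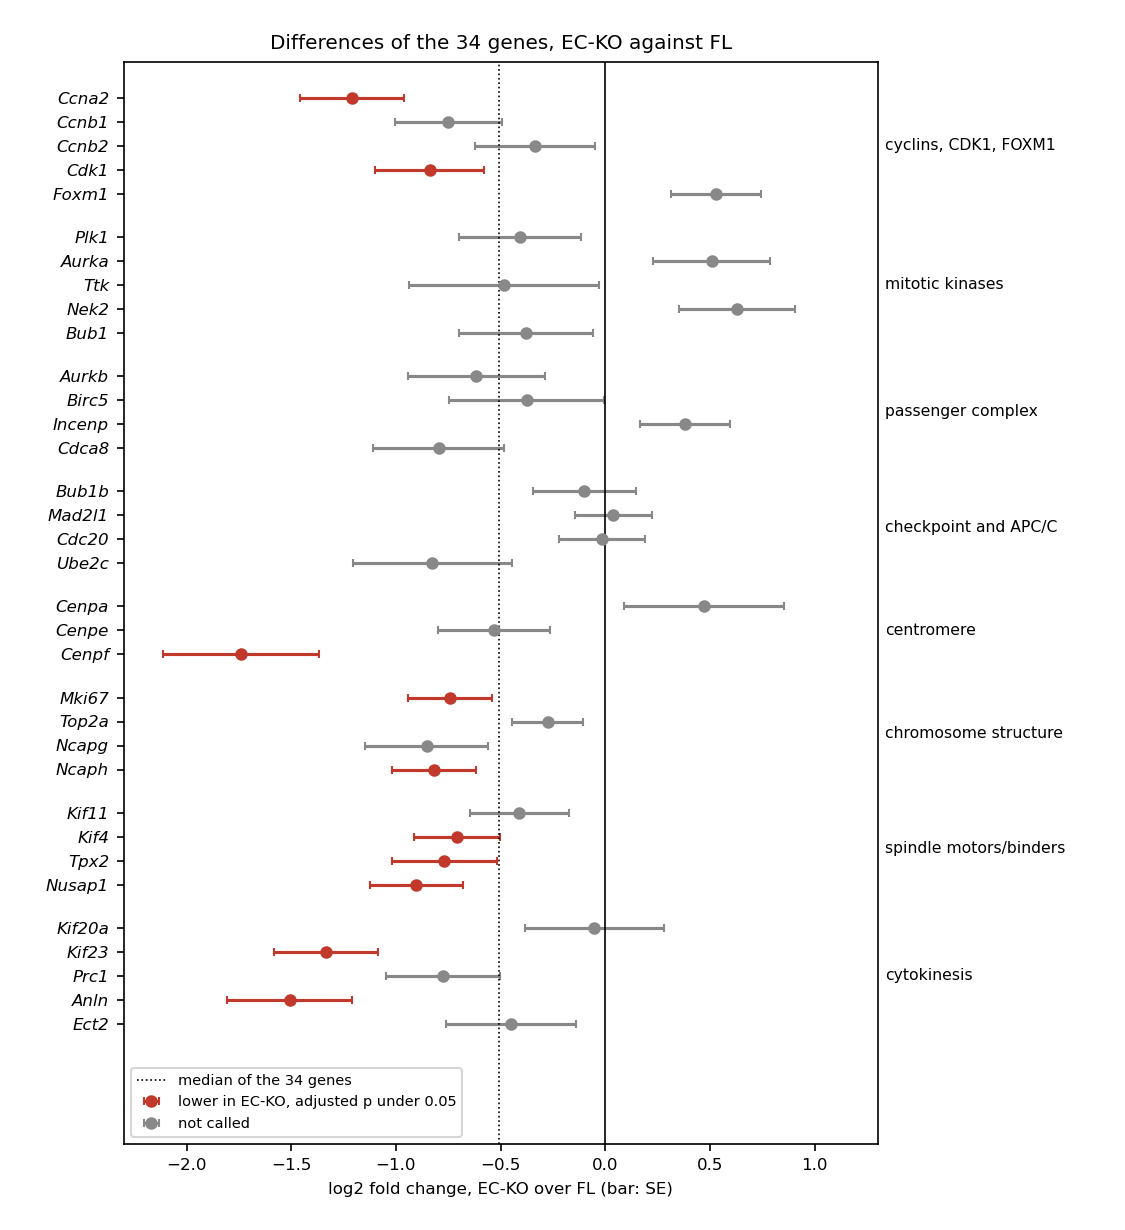
Log2 fold change of EC-KO over FL for each of the 34 genes, with bars of 1 standard error, grouped by role. The 10 genes that fell run from -1.74 (Cenpf) to -0.71 (Kif4), and the 6 genes above 0 did not pass the test.

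The plot of levels shows how low many of these transcripts were: 25 of the 34 averaged under 10 CPM in both groups, and 16 had under 100 counts in at least 1 library. The lowest count was 17, for Ttk in FL 1. Per transcript length, Cenpa was the most abundant in both groups, at 49.2 transcripts-per-million units (TPM) in EC-KO and 34.3 TPM in FL. Mki67 came next in FL with 28.8 TPM, and had 17.4 TPM in EC-KO. Kif23 was at 6.75 TPM in EC-KO and 16.7 TPM in FL, which placed it 11th of the 34 in EC-KO and 3rd in FL. Cenpf, the gene with the lowest fold change, was also among the least abundant, at 0.464 TPM in EC-KO and 1.52 TPM in FL.

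Promoters of such genes are known for the CHR element, through which MuvB complexes bind, and for CCAAT boxes, which bind NF-Y. RefSeq windows of GRCm38.p6 from 250 bases before to 50 after the annotated start were available for 28 of the 34 genes. The CHR letters TTTGAA, searched on both strands, occurred in 20 of the 28 (71.4%), compared with 20.2% of the 27025 genes with a window and 15.0% of the 12455 tested genes with one. CCAAT on either strand occurred in 23 (82.1%), compared with 41.1% of genes with a window, and both motifs in 19 (67.9%), compared with 7.97%. Only 1 CHR match shared a base with a CCAAT match. The variant letters TTCGAA and TTTAAA were found in 3 (10.7%) and 7 (25%) of the 28, beside 1.80% and 14.9% of genes with a window. These shares describe the whole list, and whether motifs go with the change in EC-KO was not tested. TTTGAA was in 6 of 8 genes that fell (75%) and in 14 of 20 that did not pass the test (70%). CCAAT was in 5 of 8 (62.5%) and 18 of 20 (90%).

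The windows of Kif23, Anln, Cenpf and Ncaph are shown because these genes had the smallest p among those that fell and had a window. That of Cdc20 is shown because it had the largest adjusted p among the mitosis genes with a window. The windows of Ncaph and of Nusap1, which also fell, held neither motif, and that of Cdc20 held both. The windows shown are read 5′ to 3′ on the gene's strand, which is the minus strand for all 5. Capitals mark TTTGAA or CCAAT on either strand. Their positions are chr9:61946750-61947049 (Kif23), chr9:22389157-22389456 (Anln), chr1:189688037-189688336 (Cenpf), chr2:127133905-127134204 (Ncaph) and chr4:118437294-118437593 (Cdc20).
Kif23: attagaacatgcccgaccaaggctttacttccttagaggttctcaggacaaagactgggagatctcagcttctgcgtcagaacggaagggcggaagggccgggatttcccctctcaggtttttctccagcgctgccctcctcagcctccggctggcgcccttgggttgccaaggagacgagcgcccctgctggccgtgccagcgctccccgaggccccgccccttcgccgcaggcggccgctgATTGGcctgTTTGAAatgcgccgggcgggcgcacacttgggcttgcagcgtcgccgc
Anln: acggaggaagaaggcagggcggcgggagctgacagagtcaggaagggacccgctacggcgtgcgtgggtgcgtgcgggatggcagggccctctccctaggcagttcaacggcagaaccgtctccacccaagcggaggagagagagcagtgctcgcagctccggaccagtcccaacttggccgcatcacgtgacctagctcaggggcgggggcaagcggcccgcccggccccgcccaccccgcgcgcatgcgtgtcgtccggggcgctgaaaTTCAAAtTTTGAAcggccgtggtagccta
Cenpf: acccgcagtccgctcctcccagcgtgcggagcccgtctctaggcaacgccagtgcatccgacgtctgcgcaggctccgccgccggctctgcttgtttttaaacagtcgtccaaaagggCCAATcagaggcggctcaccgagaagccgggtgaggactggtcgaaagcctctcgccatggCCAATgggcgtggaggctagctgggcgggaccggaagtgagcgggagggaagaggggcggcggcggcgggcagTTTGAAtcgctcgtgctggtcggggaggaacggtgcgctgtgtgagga
Ncaph: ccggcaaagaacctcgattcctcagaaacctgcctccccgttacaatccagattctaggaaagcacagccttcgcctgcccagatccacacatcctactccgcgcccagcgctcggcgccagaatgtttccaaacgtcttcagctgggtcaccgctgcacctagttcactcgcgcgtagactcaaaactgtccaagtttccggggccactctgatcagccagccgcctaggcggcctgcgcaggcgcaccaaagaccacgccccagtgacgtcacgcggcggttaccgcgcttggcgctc
Cdc20: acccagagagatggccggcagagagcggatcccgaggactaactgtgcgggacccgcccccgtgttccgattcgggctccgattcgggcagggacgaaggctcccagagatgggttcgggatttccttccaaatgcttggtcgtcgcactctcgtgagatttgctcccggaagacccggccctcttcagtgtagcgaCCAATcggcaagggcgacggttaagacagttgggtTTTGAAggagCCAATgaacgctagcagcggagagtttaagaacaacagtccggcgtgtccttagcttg

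In Kif23 and Cenpf the TTTGAA match began 2 bases after the annotated start, and in Anln a match on each strand began 21 and 28 bases after it. In Cdc20 the match began 18 bases before the start, between a pair of CCAAT matches. A match of these letters is a description of the sequence and shows no binding in these cells.

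**Figure D3:**
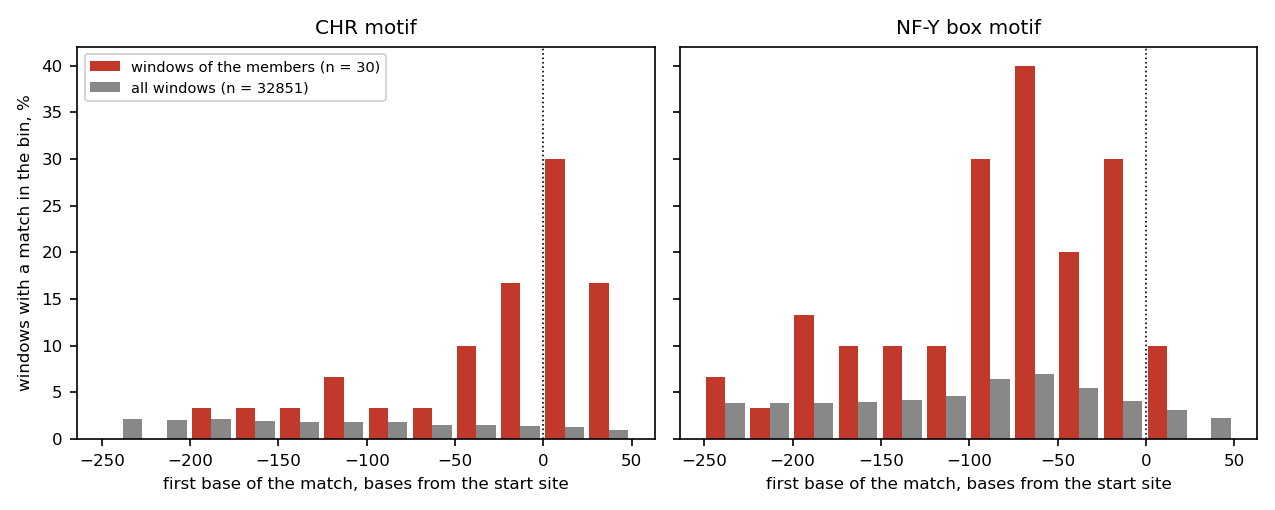
Share of windows with a CHR match (TTTGAA) or a CCAAT match (the NF-Y box) starting in each 25-base bin, by distance from the annotated start in bases, for the 30 windows of the 28 mitosis genes and for the 32851 windows of all genes. CHR matches of the mitosis genes gather around the start, with 30% of windows in the bin just after it against 1.31% of all windows, and CCAAT matches gather before it.

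In 2 of the 28 genes, Ect2 and Prc1, a pair of windows overlapped. Counted once by genome position, the windows held 26 CHR matches, of which 20 lay within 60 bases before to 50 bases after the start, as the plot of motif positions shows. By gene, 19 of 28 (67.9%) had one there, against 6.36% of all genes with a window.

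The counts by role stand beside 13.5% lower and 13.5% higher of all genes tested, and roles of so few genes cannot be ranked by them. Among the cyclins, their kinase and the G2/M transcription factor, 2 of 5 fell (40%). Ccna2 encodes cyclin A, which works from S phase to early mitosis. It had 3.23, 3.98 and 2.84 CPM in EC-KO and 6.52, 9.47 and 7.28 CPM in FL, so the groups were well apart. Its means were 3.35 ± 0.578 CPM in EC-KO and 7.76 ± 1.53 CPM in FL (SD, n = 3 each), and its log2 fold change was -1.21 ± 0.25 (adjusted p = 0.00830). By the table's coordinates 12.5% of its exon bases overlap another gene, Exosc9, and whether strand was used in counting is not given in the sources used here. Cdk1, the kinase of mitotic entry, had 2.80, 2.26 and 2.38 CPM in EC-KO and 3.60, 4.28 and 5.42 CPM in FL. Its groups did not overlap either, with a log2 fold change of -0.84 ± 0.26 (adjusted p = 0.0418), but the call was lost without any 1 of EC-KO 1, EC-KO 2, EC-KO 3, FL 2 or FL 3, with adjusted p of 0.0548 to 0.151. It was also lost with upper-quartile scaling, library-size scaling and no filter on low counts (adjusted p = 0.0566, 0.0637 and 0.0565). Ccnb1, cyclin B1, had 1.88, 1.79 and 2.29 CPM in EC-KO and 3.34, 3.27 and 3.41 CPM in FL. Its groups were separate, and its log2 fold change of -0.75 ± 0.25 missed the threshold (adjusted p = 0.0558), though it passed with DESeq2. Ccnb2, cyclin B2, had 2.86, 4.83 and 3.8 CPM in EC-KO and 3.68, 5.96 and 4.84 CPM in FL, which overlap (log2 fold change -0.34, adjusted p = 0.411). Foxm1, the activator of the G2/M program, lay on the other side of 0. It had 15.1, 11 and 14.3 CPM in EC-KO and 8.0, 11.2 and 8.77 CPM in FL, with EC-KO 2 inside the FL range (log2 fold change 0.53 ± 0.21, adjusted p = 0.0956). Without EC-KO 2 its fold change was 0.62 and passed the test (adjusted p = 0.0369).

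None of the 5 mitotic kinases passed the test (0 lower, 0 higher), beside 13.5% each way of all genes tested. Nek2, a kinase of centrosome separation, had 4.82, 7.81 and 7.33 CPM in EC-KO and 5.27, 3.27 and 4.39 CPM in FL (log2 fold change 0.63 ± 0.28, adjusted p = 0.121). Aurka, the Aurora kinase of the spindle poles, had 7.74, 4.26 and 5.91 CPM in EC-KO and 3.56, 3.91 and 5.12 CPM in FL (0.51 ± 0.28, adjusted p = 0.207). In both genes 1 EC-KO library lay within the FL range. Plk1, the Polo-like kinase, had 1.70, 1.85 and 1.70 CPM in EC-KO and 2.24, 1.86 and 2.86 CPM in FL, a narrow separation with a log2 fold change of -0.41 ± 0.29 (adjusted p = 0.326). The checkpoint kinases Ttk and Bub1 had log2 fold changes of -0.48 ± 0.45 and -0.38 ± 0.32 (adjusted p = 0.455 and 0.409), and their groups overlapped.

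The chromosomal passenger complex corrects chromosome attachment and later moves to the spindle midzone. It had 0 of 4 subunits past the test, beside 13.5% each way of all genes tested. Cdca8 (borealin) had 2.08, 2.45 and 3.15 CPM in EC-KO and 2.99, 5.90 and 4.42 CPM in FL, with a log2 fold change of -0.80 ± 0.31 (adjusted p = 0.0891). FL 1 was inside the EC-KO range, and without it Cdca8 passed the test at -1.04 (adjusted p = 0.0428). Its kinase Aurkb had 1.91, 1.76 and 1.3 CPM in EC-KO and 1.86, 3.33 and 2.41 CPM in FL (log2 fold change -0.62 ± 0.33, adjusted p = 0.190), again with FL 1 inside the EC-KO range. Incenp, the scaffold of the complex and its most abundant transcript, had 28.8, 18.8 and 30.7 CPM in EC-KO and 18, 23.0 and 19.1 CPM in FL. EC-KO 2 lay with FL, and the log2 fold change was 0.38 ± 0.22 (adjusted p = 0.220). Without EC-KO 2 it was 0.54 and passed the test (adjusted p = 0.0278). Birc5 (survivin) had overlapping groups and a log2 fold change of -0.38 ± 0.37 (adjusted p = 0.477).

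The spindle checkpoint holds anaphase back until chromosomes are attached, and the anaphase-promoting complex starts anaphase. None of the 4 genes of this role passed the test, beside 13.5% each way of all genes tested. Mad2l1, a checkpoint inhibitor of the complex, was nearly level, with 10.9, 9.16 and 9.90 CPM in EC-KO and 8.91, 10.5 and 9.81 CPM in FL (log2 fold change 0.04 ± 0.18, adjusted p = 0.898). Cdc20, the activator that the checkpoint blocks, had 7.19, 6.46 and 5.72 CPM in EC-KO and 6.25, 7.12 and 6.21 CPM in FL (-0.02 ± 0.20, adjusted p = 0.959). Both fold changes lay within 1 standard error of 0. Bub1b, which encodes the checkpoint protein BUBR1, had 11.3, 15.8 and 16.4 CPM in EC-KO and 19.7, 15.4 and 11.4 CPM in FL (-0.10 ± 0.24, adjusted p = 0.790). Ube2c, the ubiquitin-conjugating enzyme of the complex, had 2.19, 4.11 and 2.75 CPM in EC-KO and 3.11, 7.91 and 4.99 CPM in FL. Its spread in FL was wide and the groups overlapped (log2 fold change -0.83 ± 0.38, adjusted p = 0.134), and by the table's coordinates 22.8% of its exon bases overlap Tnnc2. Without EC-KO 2 the fold change of Ube2c was -1.14, at the threshold (adjusted p = 0.04999).

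Of the 3 centromere and kinetochore genes 1 fell (33.3%, beside 13.5% of all genes tested). Cenpf, a large coiled-coil protein of the outer kinetochore, had 1.79, 1.57 and 2.66 CPM in EC-KO and 3.56, 8.31 and 8.22 CPM in FL. All EC-KO libraries were low, FL 1 was intermediate, and FL 2 and FL 3 were high. The means were 2.01 ± 0.577 CPM in EC-KO and 6.70 ± 2.72 CPM in FL (SD, n = 3 each), with a log2 fold change of -1.74 ± 0.37 (adjusted p = 0.0105). Cenpe, a kinetochore motor, had 4.88, 3.17 and 5.66 CPM in EC-KO and 6.22, 7.73 and 5.88 CPM in FL, without overlap (-0.53 ± 0.27, adjusted p = 0.168). Cenpa, the centromeric histone variant, was scattered in both groups, at 93.9, 35.2 and 110.2 CPM in EC-KO and 68.8, 64.0 and 39.96 CPM in FL. EC-KO 2 was the lowest of the 6 libraries, and the log2 fold change of 0.47 ± 0.38 did not pass the test (adjusted p = 0.386). Without EC-KO 2 it was 0.80 and passed (adjusted p = 0.0235).

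Of the 4 genes of chromosome structure 2 fell (50%, beside 13.5% of all genes tested). Ncaph, a subunit of condensin I, had 8.84, 11.4 and 9.34 CPM in EC-KO and 16.2, 15.2 and 20.7 CPM in FL. The groups were apart, with a log2 fold change of -0.82 ± 0.20 (adjusted p = 0.0176), and the call was lost without EC-KO 1, EC-KO 3 or FL 3 (adjusted p = 0.0692, 0.0553 and 0.0759). Mki67, which encodes the proliferation marker Ki-67 of the mitotic chromosome surface, had 41.8, 49.99 and 57.0 CPM in EC-KO and 91.8, 93.7 and 63.0 CPM in FL. FL 3 stood close to EC-KO 3, and the log2 fold change was -0.74 ± 0.20 (adjusted p = 0.0256). The call for Mki67 was lost without EC-KO 1, FL 1 or FL 2 (adjusted p = 0.0993, 0.0654 and 0.0991). Ncapg, another condensin I subunit, had 2.34, 2.38 and 1.79 CPM in EC-KO and 2.77, 4.74 and 4.26 CPM in FL, without overlap. Its log2 fold change of -0.85 ± 0.29 missed the threshold (adjusted p = 0.0577) and passed without EC-KO 2 or FL 1 (adjusted p = 0.0493 and 0.0314). Of its exon bases 13.4% overlap Lcorl. Top2a, the topoisomerase that untangles sister chromatids, had 34, 28.3 and 36.1 CPM in EC-KO and 34.9, 44.5 and 39.6 CPM in FL (-0.28 ± 0.17, adjusted p = 0.255), with EC-KO 3 above FL 1.

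The spindle motors and microtubule binders had 3 of 4 genes that fell (75%, beside 13.5% of all genes tested). Nusap1, which bundles spindle microtubules, was tight in EC-KO at 4.48, 4.70 and 4.36 CPM, against 6.59, 9.75 and 8.95 CPM in FL. Its log2 fold change was -0.90 ± 0.22 (adjusted p = 0.0178), and the call was lost without EC-KO 1, EC-KO 3, FL 2 or FL 3 (adjusted p of 0.0525 to 0.0775). Kif4, a kinesin of chromosome arms and the midzone, had 4.42, 3.89 and 3.96 CPM in EC-KO and 6.22, 6.69 and 7.13 CPM in FL. The spread within each group was small, and the log2 fold change was -0.71 ± 0.21 (adjusted p = 0.0334). The call for Kif4 was lost without EC-KO 1, EC-KO 3, FL 2 or FL 3 (adjusted p of 0.0733 to 0.107) and with library-size scaling or no filter (0.0573 and 0.0645). By the table's coordinates 15.1% of its exon bases overlap Pdzd11. Tpx2, which targets Aurora A to the spindle, had 4.45, 6.93 and 6.09 CPM in EC-KO and 7.5, 10.9 and 11.4 CPM in FL, with a log2 fold change of -0.77 ± 0.25 (adjusted p = 0.0498). This was the call nearest to the threshold, and it was lost without EC-KO 1, EC-KO 3, FL 2 or FL 3 (adjusted p of 0.0976 to 0.159) and with upper-quartile scaling, library-size scaling and a minimum of 1 CPM (0.0636, 0.0591 and 0.0516). Kif11, the kinesin that pushes spindle poles apart, had 6.67, 8.37 and 6.99 CPM in EC-KO and 7.47, 12.5 and 9.29 CPM in FL, which overlap (-0.41 ± 0.24, adjusted p = 0.227).

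Of the 5 genes of the central spindle and cytokinesis 2 fell (40%, beside 13.5% of all genes tested). Kif23, the motor subunit of centralspindlin, had 15.9, 11 and 18.1 CPM in EC-KO and 27.5, 45.7 and 40.2 CPM in FL. The groups were far apart, at 15.0 ± 3.61 CPM in EC-KO and 37.8 ± 9.34 CPM in FL (SD, n = 3 each), with a log2 fold change of -1.33 ± 0.25 (adjusted p = 0.00603). Anln encodes anillin, the scaffold that links actin and septins in the contractile ring. It had 2.92, 3.32 and 4.55 CPM in EC-KO and 6.71, 13.2 and 10.7 CPM in FL, which do not overlap. Its means were 3.60 ± 0.848 CPM in EC-KO and 10.2 ± 3.29 CPM in FL (SD, n = 3 each), and its log2 fold change was -1.51 ± 0.30 (adjusted p = 0.00760). Prc1, which cross-links the overlapping microtubules of the midzone, had 4.19, 4.89 and 6.43 CPM in EC-KO and 6.41, 11.4 and 8.68 CPM in FL. EC-KO 3 and FL 1 were nearly equal, and its log2 fold change of -0.77 ± 0.27 missed the threshold (adjusted p = 0.0638), but passed without FL 1 (adjusted p = 0.0362). Of the exon bases of Prc1 11.1% overlap Rccd1. Ect2, the exchange factor that activates RhoA at the cleavage plane, had a log2 fold change of -0.45 ± 0.31 (adjusted p = 0.310). Kif20a, the motor that carries the passenger complex to the midzone, was at -0.05 ± 0.33 (adjusted p = 0.921), and 29.3% of its exon bases overlap Cdc23. Their groups overlapped.

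The libraries of 1 group did not vary evenly over these genes. The mean log2 level of the 34 genes relative to the FL mean was -0.53, -0.49 and -0.39 in EC-KO 1, 2 and 3, against -0.27, 0.22 and 0.05 in FL 1, 2 and 3. FL 1 had the lowest level of the FL libraries in 25 of the 34 genes, and FL 2 the highest in 24. Summed over the 34 genes, the level was 346, 286 and 397 CPM in EC-KO and 401, 486 and 396 CPM in FL, so that EC-KO 3 lay just above FL 3. FL 1 also differed from FL 2 and FL 3 in cell type markers: its mean log2 level relative to the FL mean was -0.91 for neutrophil markers, against 0.60 in FL 2 and 0.31 in FL 3. For epithelial markers it was 0.59 in FL 1, against -0.36 in FL 2 and -0.23 in FL 3. The part of these differences in the spread of the mitosis genes was not tested. The median coefficient of variation of the 34 genes was 19.2% in EC-KO and 22.2% in FL, and that of all genes tested 22.4% in EC-KO and 17.2% in FL.

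**Figure D4:**
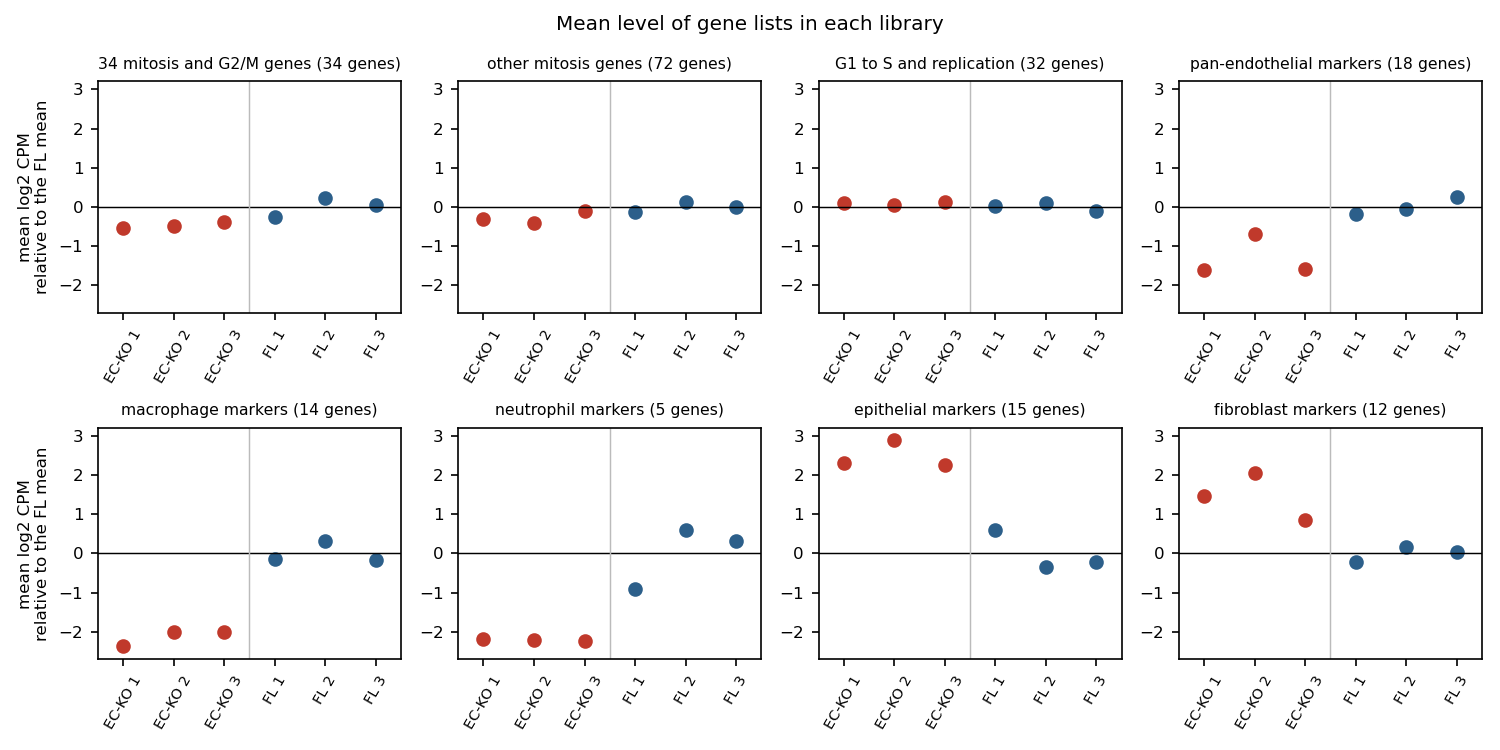
Mean log2 CPM of gene lists relative to the FL mean, with 1 point per library, EC-KO libraries left of FL libraries, in panels for the 34 mitosis genes, 2 further cell-cycle lists and 5 marker lists. Over the 34 genes the EC-KO libraries lie between -0.53 and -0.39 and the FL libraries between -0.27 and 0.22.

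Of 72 other genes of mitosis (further kinetochore, condensin, spindle and cytokinesis genes), 11 were lower in EC-KO (15.3%, close to the 13.5% of all genes tested) and 2 higher, with a median log2 fold change of -0.29. Without EC-KO 1, FL 2 and FL 3 in turn, 2, 3 and 6 of them were lower, and the 2 without EC-KO 1 were Smc2 and Spc25. Smc2, the core subunit of condensin, had 8.75, 9.31 and 10.5 CPM in EC-KO and 16.4, 21.9 and 18.6 CPM in FL, without overlap (log2 fold change -1.0 ± 0.19, adjusted p = 0.00600). Spc25 and Nuf2 of the NDC80 complex, which attaches microtubules to the kinetochore, fell by 1.17 ± 0.23 and 1.3 ± 0.29 on the log2 scale (adjusted p = 0.00756 and 0.0125), and Hjurp, the chaperone that loads CENP-A, fell by 0.71 ± 0.16 (adjusted p = 0.0115). The other subunits of the NDC80 complex, Ndc80 and Spc24, were at -0.30 ± 0.29 and -0.32 ± 0.35, with overlapping groups (adjusted p = 0.462 and 0.522). Nuf2 and Hjurp lost their calls without EC-KO 1 (adjusted p = 0.0512 and 0.0529) and without FL 2 (adjusted p = 0.0566 and 0.0550). The other 7 lower genes, named after their values were seen, were Pbk, Hmmr, Ska2, Kntc1, Cdca3, Ckap5 and Smc4, at -2.02 to -0.56, and none of these passed the test without EC-KO 1. On the other side, Ccnf, cyclin F of an SCF ubiquitin ligase, had 6.35, 8.0 and 11.8 CPM in EC-KO and 2.62, 2.63 and 2.47 CPM in FL. It rose by 1.76 ± 0.27 on the log2 scale (adjusted p = 0.00272). Ska3, a kinetochore protein of the SKA complex, had 3.61, 4.95 and 4.17 CPM in EC-KO and 1.48, 1.68 and 1.37 CPM in FL (1.49 ± 0.27, adjusted p = 0.00482). Ska1 of the same complex was at -0.04 ± 0.38 (adjusted p = 0.944). Ndc80, Spc24 and Ska1 were also named after their values were seen.

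**Figure D5:**
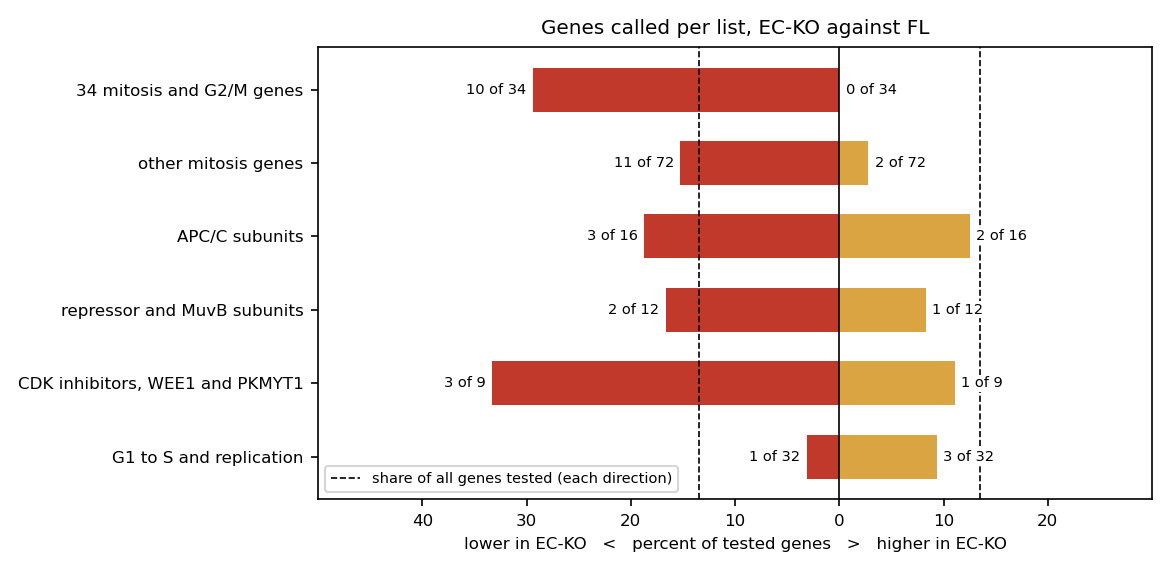
Percent of tested genes called lower and higher in EC-KO for the 34 mitosis genes, the other mitosis genes and 4 further cell-cycle lists, beside all 18562 genes tested. The 34 genes have 29.4% lower and 0% higher, and the other mitosis genes 15.3% lower and 2.78% higher, against 13.5% each way for all genes.

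Genes of G1 to S and replication lay on both sides of 0. Of 32, 3 were higher (9.4%) and 1 lower (3.1%), with a median log2 fold change of 0.11. Both shares were below the 13.5% each way of all genes tested. Cdt1, which licenses replication origins, had 93.9, 39.4 and 81.7 CPM in EC-KO and 35.1, 23.3 and 19.3 CPM in FL (1.47 ± 0.34, adjusted p = 0.0134). Mcm10 and Cdc6, also of origin licensing and firing, rose by 0.84 ± 0.27 and 0.91 ± 0.29 (adjusted p = 0.0467 and 0.0479), and Ccnd3, cyclin D3, fell by 0.86 ± 0.26 (adjusted p = 0.0383). The groups of Ccnd3 overlapped, with EC-KO 2 at 64.8 CPM above FL 1 at 63.3 CPM. None of these 4 calls held without each library in turn: without EC-KO 1 the adjusted p was 0.0553 for Cdt1, 0.0629 for Mcm10, 0.0838 for Cdc6 and 0.13 for Ccnd3, and without FL 2 or FL 3 they were also lost (adjusted p of 0.0566 to 0.17). The calls of Mcm10 and Cdc6 were lost without any 1 of the 6 libraries, and that of Ccnd3 also without EC-KO 3 (adjusted p = 0.108). Cdc6 also lost its call with the replicate number as a block (adjusted p = 0.0804).

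A list of cell-cycle repressor and MuvB genes, which also holds Mybl2 (B-MYB), had 12 genes tested. Of these, 2 were lower (16.7%) and 1 higher (8.3%), beside 13.5% each way of all genes tested (median log2 fold change -0.01). The MuvB genes are not repressors alone, as the MuvB core also works with B-MYB and FOXM1. Rb1, the retinoblastoma protein gene, had 51.3, 58.4 and 53.9 CPM in EC-KO and 105, 106 and 116 CPM in FL. The spread within groups was small beside this gap (-1.0 ± 0.14, adjusted p = 0.00195). Rbl1, which encodes the RB-like protein p107 of the DREAM complex, had 16.8, 15.7 and 16.4 CPM in EC-KO and 28.5, 31.3 and 26.9 CPM in FL (-0.83 ± 0.16, adjusted p = 0.00599). Lin52, a MuvB subunit, rose by 0.56 ± 0.18 (adjusted p = 0.0456), a call that was lost without any 1 library other than EC-KO 2 (adjusted p of 0.0970 to 0.156). It was also lost with no filter and with the replicate number as a block (0.0944 and 0.0985).

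Among 9 CDK inhibitor proteins and inhibitory kinases, 3 were lower (33.3%) and 1 higher (11.1%), beside 13.5% each way of all genes tested. In this short list 5 of the 9 had fold changes above 0, and the median log2 fold change was 0.44. Cdkn1b, which encodes the inhibitor p27, had 119, 100.1 and 130.1 CPM in EC-KO and 245, 255 and 222 CPM in FL, without overlap (log2 fold change -1.05 ± 0.16, adjusted p = 0.00277). Cdkn2c and Cdkn2d, inhibitors of the cyclin D kinases, fell by 0.76 ± 0.21 and 0.62 ± 0.20 (adjusted p = 0.0269 and 0.0473), and Wee1, the kinase that holds CDK1 inactive, rose by 0.61 ± 0.18 (adjusted p = 0.0326). Without EC-KO 1 the adjusted p was 0.0953 for Cdkn2c, 0.0814 for Cdkn2d and 0.0868 for Wee1, and without FL 3 it was 0.0779, 0.159 and 0.139. Cdkn2c and Cdkn2d were also lost without EC-KO 3 (adjusted p = 0.0814 and 0.113), Cdkn2d without FL 1 (0.0962), and Cdkn2c and Wee1 without FL 2 (0.106 and 0.132). The call of Cdkn2d was lost too with upper-quartile scaling, library-size scaling, a minimum of 1 CPM and limma-voom (0.0749, 0.0855, 0.0502 and 0.0560). With the replicate number as a block, Cdkn2c, Cdkn2d and Wee1 lost their calls (0.0561, 0.0744 and 0.0737).

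Of 16 subunits and partners of the anaphase-promoting complex, 3 were lower (18.8%) and 2 higher (12.5%), with a median log2 fold change of -0.26. These shares were near the 13.5% each way of all genes tested. Anapc15, a small subunit that acts in checkpoint release, had 10.5, 7.40 and 8.87 CPM in EC-KO and 4.78, 3.97 and 4.11 CPM in FL (1.06 ± 0.22, adjusted p = 0.00919). Anapc7 was higher too (0.69 ± 0.21, adjusted p = 0.0380). Cdc23, Anapc1 and Cdc26 fell by 0.65 ± 0.16, 0.59 ± 0.17 and 0.53 ± 0.16 (adjusted p = 0.0177, 0.0297 and 0.0419). Of these 5 calls that of Anapc15 held without each library in turn, and without FL 2 the adjusted p was 0.146 for Anapc7, 0.0667 for Cdc23, 0.114 for Anapc1 and 0.0823 for Cdc26. These were also lost without FL 3, at 0.101, 0.0732, 0.0885 and 0.144, and the calls of Anapc7, Anapc1 and Cdc26 also without EC-KO 1 or EC-KO 3 (adjusted p of 0.0559 to 0.138), and those of Anapc7 and Cdc26 without FL 1 (0.0579 and 0.0704). With the replicate number as a block Cdc23, Anapc1 and Cdc26 lost their calls (0.0521, 0.0749 and 0.108). Library-size scaling ended those of Anapc1 and Cdc26 (0.0741 and 0.0773), and upper-quartile scaling and no filter that of Cdc26 (0.0688 and 0.0731).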

How the data were processed

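Gene counts in 6 libraries (3 EC-KO, 3 FL) were analysed as the authors deposited them: raw read counts per Ensembl gene in the layout of featureCounts, per the file headers. Per the submitters' processing notes, the tools were STAR 2.7.10b and featureCounts 2.0.3 and the build mm10. The sources used here do not give annotation release, strand or alignment settings. The deposited gene length in bases, another column of the authors' table, served for TPM. A deposited summary of counts per class assigned 72.4% to 74.7% of alignments to genes in EC-KO and 75.5% to 77.8% in FL. The table's 2 further per-sample columns match no labelled sample and were not used. Its gene starts match those of GENCODE M21 (GRCm38) in 0 of 34 mitosis genes, so its coordinates are used only for overlap between genes.

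Genes were filtered with filterByExpr and scaled by TMM, and EC-KO was tested against FL with the robust quasi-likelihood F test of edgeR 4.0.16 (R 4.3.3), two-sided, without covariates, adjusted by Benjamini-Hochberg over 18562 genes at a threshold of 0.05. "Fell", "rose", "lower" and "higher" of single genes refer to this threshold. Standard errors are the absolute log2 fold change over the square root of F. CPM values use TMM scaling. Depth was 26658998 to 34306962 counts, and edgeR's common coefficient of biological variation 25.5%. The steps were tested on simulated data.

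The mitosis genes, the other lists, their roles and the markers were chosen with earlier results of these data known, so no list was tested as a set. All 34 genes and Fundc1 were named whatever their result; in each role the values in every library were given for at least the pair with the smallest p and the most abundant gene, and up to 4 called genes per direction were named from each further list. Lin54 of the repressor and MuvB list was not analysed here. Tried in place of these were scaling by RLE, by upper quartiles or by library size alone, no filter, a minimum of 1 CPM in 3 libraries, limma-voom (limma 3.58.1), DESeq2 1.42.0, a fit that was not robust, a replicate block and leaving out each library. Motifs and figures were made with Python 3.11.15 and matplotlib 3.10.9.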

Additional observations from a re-analysis of the deposited data

How the results depend on the processing

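The EC-KO and FL libraries carry the same replicate numbers, and the labels do not say whether equal numbers mark paired samples. Deviations from the group means correlated at 0.05, 0.07 and -0.18 for same-numbered libraries, and at -0.22 to 0.23 for the other pairs. With so few libraries these values cannot settle whether the samples were paired. With the replicate number as a block 6 of the 34 mitosis genes were lower and 0 higher, and the count of all genes called was 3848, against 5029 without it. The block ended the calls of Cdk1, Mki67, Kif4 and Tpx2 (adjusted p = 0.0959, 0.0586, 0.0892 and 0.0511).

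The number of mitosis genes lower was 10 with RLE scaling, limma-voom and a fit that was not robust, 9 with no filter and with 1 CPM in 3 libraries, 8 and 7 with upper-quartile and library-size scaling, and 13 with DESeq2. Genes added by DESeq2 were Ccnb1, Ncapg and Prc1, and Prc1 was also added with no filter. Leaving out each library gave 4 to 12 lower and 0 to 3 higher; the 3 were Foxm1, Incenp and Cenpa, without EC-KO 2. It gave 2 to 13 lower and 2 to 3 higher of the 72 other mitosis genes, and all genes called numbered 2547 to 6740. The median log2 fold change of the 34 lay between -0.71 and -0.39 under every alternative. Over 34 genes and 15 alternatives, 447 of 510 results kept direction and call, 35 lost the call, 12 gained it and 16 turned sign; the cause was not tested.

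The 16 were in 4 genes near 0. Cdc20 was at 0.059, 0.070 and 0.011 with upper-quartile scaling, library-size scaling and 1 CPM in 3 libraries. Kif20a was at 0.028, 0.043, 0.00186 and 0.022 with upper-quartile scaling, library-size scaling, limma-voom and the block. Without single libraries Bub1b ran between -0.31 and 0.077, Mad2l1 between -0.055 and 0.086, Cdc20 between -0.10 and 0.048 and Kif20a between -0.37 and 0.16. Counts limit what can be seen: 16 of the 34 genes had under 100 counts in at least 1 library, and leaving a library out also lowers the degrees of freedom for every gene.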
